A study of Mus musculus with 18 samples.

Results

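Lung epithelial cells with the highest activity of a Wnt reporter were compared with cells that showed none. The comparison used 12 of the 18 arrays of the study, 6 titled Wnt-high and 6 titled Wnt-negative, and was read over all 30142 genes that a probe set names alone. The reporter mice, labelled TCF/Lef:H2B/GFP, carry a promoter that TCF/Lef factors switch on, and it drives a histone fused to green fluorescent protein. Mice of both groups were 8 to 12 weeks old and carried the same transgene, and the labels name no treatment and no difference between the groups other than sorted brightness. Lungs with trachea and bronchi were digested with dispase, cells carrying CD31 or CD45 were removed on beads, and live EpCAM+ cells were sorted by green fluorescence. Each array held a pool of 3 to 4 animals, and 8 ng of RNA per pool was amplified. Experiments 4, 5, 7, 8 and 9 gave an array to each group, experiment 2 only to Wnt-high and experiment 3 only to Wnt-negative. The labels call the tissue distal lung although the protocol includes the large airways.

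Wnt ligands stabilise beta-catenin, which enters the nucleus and works with TCF/Lef factors to switch genes on. In the adult lung such signalling is known in alveolar type II cells, which make surfactant and can renew the alveolar lining, and in airway cells. Airway epithelium is built mostly of ciliated cells, which move mucus with motile cilia, and of secretory cells. Because a histone fusion protein is long lived, its brightness can outlast the signal that made it.

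Values were the deposited log2 values, with a background taken from 1382 olfactory and vomeronasal receptor genes, which lung epithelium is not known to use. The 95th percentile of those genes was 4.79 in experiments 2 to 5 and 3.85 in experiments 7 to 9. The arrays fall into these 2 runs, with array medians of 4.62 to 4.77 and 3.55 to 3.69, and each run holds 3 arrays of each group. All differences are therefore means of the differences within runs, and a mean ± SD over 6 arrays includes the offset between runs. A difference is written as "at least" where the lower group lay below the background in 1 or both runs. The labels do not say how animals were shared between groups of an experiment, and p-values measure the spread between pools. In bulk samples fewer cells of a type and less RNA per cell cannot be told apart.

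Between Wnt-high and Wnt-negative cells, 4193 of 30142 genes were called, or 13.9%, 1995 higher (6.62%) and 2198 lower (7.29%) in Wnt-high cells. A gene was called where limma, with the run as a block, gave an adjusted p under 0.05 and the groups lay at least 1 log2 unit apart. The adjusted p alone was passed by 12089 genes (40.1%), and 2007 (6.66%) were called and lay at least 2 log2 units apart, 1122 higher (3.72%) and 885 lower (2.94%). The groups did not overlap over the 12 arrays for 2035 of all genes (6.75%) and for 1940 of the called genes. Among 19043 protein coding genes, 1769 rose (9.29%) and 1459 fell (7.66%), and these shares are the background for the gene lists below. They count all coding genes, of which 11162 had their higher group above the receptor background in both runs. Lists differ in this, with 21 of 24 such genes in the V-ATPase list and 15 of 77 in the cadherin list. A list of mostly expressed genes is therefore not set against its like. The median log2 difference was −0.05 over all genes and −0.03 over coding genes. The rises were the larger changes: 317 genes rose by at least 5 and 71 fell by at least 5, and the median called difference was 2.24 among higher and −1.73 among lower genes. For 402 called genes, 272 higher and 130 lower, the difference is a lower limit in size. The direction was equal in both runs for all 4193 called genes, which the choice of genes by their mean over both runs made likely.

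The arrays of a group were not equal to each other. The Wnt-high array of experiment 4 lay at −1.30 over the genes called lower, in log2 units from the Wnt-negative mean of its run, where the other Wnt-high arrays lay between −1.70 and −1.93. Among the 3 Wnt-high arrays of experiments 2 to 5 it had the highest value for 1975 of the 2198 lower genes, or 89.9%. The Wnt-negative array of experiment 3 was the highest of its 3 for 44.0% of the higher genes. Without the Wnt-high array of experiment 4, 4375 genes were called, 2057 higher and 2318 lower. The Wnt-low arrays, which did not enter the fit, lay between the groups over the higher genes, at 0.49 to 1.67. Over the lower genes they lay at −0.30 to −1.34. There the Wnt-low array of experiment 3, at −1.34, lay beyond the Wnt-high array of experiment 4, at −1.30.

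**Figure D1:**
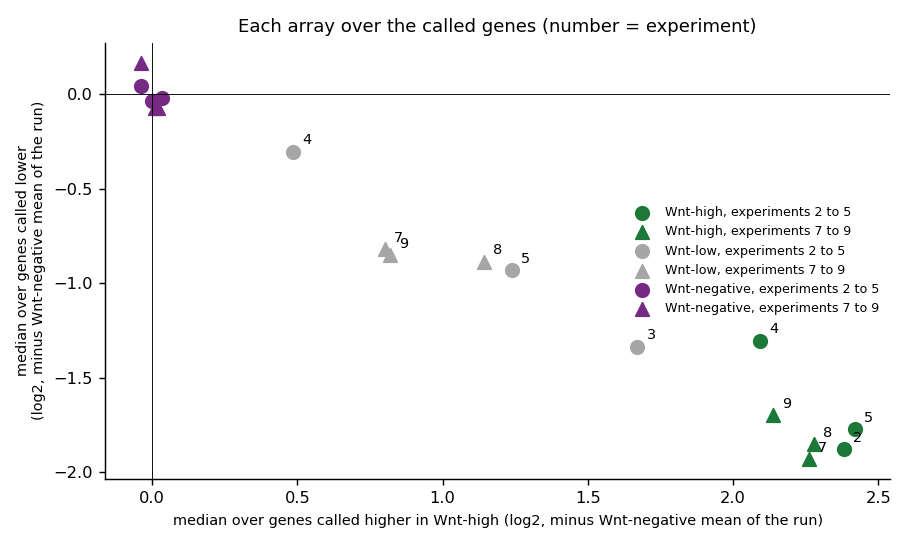
Each point is an array, placed by its median over the genes called higher (horizontal axis) and over the genes called lower (vertical axis), in log2 units from the Wnt-negative mean of its run; circles are experiments 2 to 5 and triangles experiments 7 to 9. The genes were chosen by this comparison, so the separation of the groups is a description, and the Wnt-high array of experiment 4 is the nearest of its group to the Wnt-negative arrays on the vertical axis, at −1.30.

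The genes with the highest differences, among called coding genes outside the earlier lists, are mostly parts of the motile cilium. Sntn, which encodes sentan of the ciliary tip, ran from 14.57 to 15.76 in Wnt-high arrays (median 15.10) and from 3.39 to 7.28 in Wnt-negative arrays (median 4.56). Its log2 difference was at least 10.22 (SE 0.40, adjusted p = 4.98e-09), and the groups did not overlap. Hydin, a protein of the central pair of ciliary microtubules, ran from 14.11 to 14.83 (median 14.35) against 3.88 to 6.53 (median 4.90), a difference of 9.37 (SE 0.29). Drc1, of the complex that regulates the axonemal dyneins, rose by 9.63 (SE 0.30). Dnah6, which encodes a heavy chain of those motors, rose by 9.83 (SE 0.38). Cfap65, Cfap206 and Hoatz, whose products belong to cilia or flagella, rose by 10.07, 9.58 and at least 9.31. Pifo, which acts in cilium disassembly, rose by 9.59, and the cadherin-related gene Cdhr4 by 9.87.

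Other genes of this leading group carry other names. Tm4sf1, a small membrane protein of the cell surface, ran from 16.003 to 17.19 in Wnt-high arrays (median 16.83) and from 5.05 to 8.91 in Wnt-negative arrays (median 6.53), a difference of 10.13 (SE 0.58, adjusted p = 1.23e-07). Csrp2, a LIM domain protein that binds actin structures, ran from 16.24 to 17.29 (median 16.79) against 5.76 to 9.30 (median 7.45), a difference of 9.40 (SE 0.54). Kcnrg, a regulator of potassium channels, rose by 9.72 (SE 0.44). The groups did not overlap for any of these genes. Ccdc153, Ccdc113 and Vwa3a complete the 15 highest, at 9.98, 9.25 and 9.47. For all 15 genes the highest Wnt-negative value was that of experiment 3, at 7.28 for Sntn.

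At the other end, the 15 genes with the lowest differences among called coding genes outside the earlier lists include surface, secreted and signalling proteins, 2 transcription factors and a lysosomal protease. Il33, an alarm cytokine stored in the nucleus of epithelial cells, ran from 4.39 to 10.53 in Wnt-high arrays (median 5.72) and from 12.07 to 13.54 in Wnt-negative arrays (median 13.09). Its difference was −6.49 (SE 0.74, adjusted p = 2.96e-05). Gsap, named for its link to the gamma secretase protease, ran from 5.26 to 10.12 (median 6.33) against 13.13 to 13.70 (median 13.60), a difference of −6.54 (SE 0.62). Rbpjl, a paralog of the DNA-binding factor of the Notch pathway, fell by 6.46 (SE 0.55). Lrp2, the endocytic receptor megalin, fell by 6.28, Itga9, an integrin subunit, by 6.28, and the kinase gene Lrrk2 by 6.13. Lgi3, a secreted leucine-rich repeat protein, ran from 7.40 to 14.33 (median 10.14) against 16.43 to 16.98 (median 16.64). Nectin1, an adhesion protein, Mlc1, a membrane protein known from astrocytes, and Vsig2, of the immunoglobulin superfamily, fell by 6.11, 6.10 and 6.16. Etv5, Entpd1, Adam19, Anpep and Ctsc complete the 15 and are described with their families. The highest Wnt-high value of each of the 15 genes was that of experiment 4, and without that array the difference of Il33 was −7.21 and that of Gsap −7.11.

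**Figure D2:**
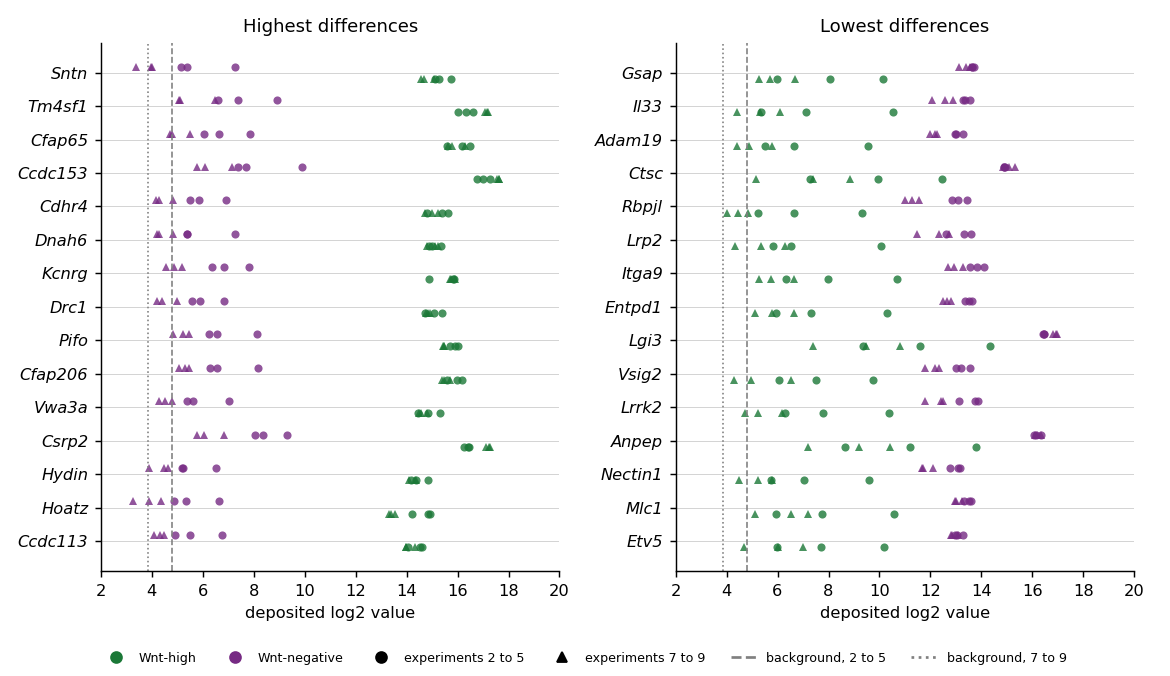
Deposited log2 values of the 30 leading genes, 15 at either end of the differences, each point an array; the dashed and dotted lines are the background of the 2 runs at 4.79 and 3.85. No gene's groups overlap, and the spread is wider in the group where the gene is low, with Il33 between 4.39 and 10.53 in Wnt-high arrays and between 12.07 and 13.54 in Wnt-negative arrays.

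Promoters of the called genes were searched for the letters that TCF/Lef and RFX factors bind, since the reporter reads the former and RFX factors are known regulators of cilium genes. A RefSeq promoter of 300 bases, 250 before and 50 after the start (GRCm38.p6), was matched for 15432 of the 19043 coding genes. The RFX core GTTGCCATG, on either strand, was in 0.648% of all these promoters, in 2.08% of those of genes called higher (30 of 1445) and in 0.340% of those called lower (4 of 1176). Among genes higher by at least 5 it was in 5.33% (13 of 244). The TCF/Lef core CTTTGAT, on either strand, was in 3.23% of all promoters, 1.87% of those called higher (27) and 2.47% of those called lower (29). It was in 2.87% of promoters of genes higher by at least 5 (7) and in 0 of 51 of genes lower by at least 5. The forkhead core TGTTTAC was in 2.96% of all promoters, 3.32% of those called higher (48) and 2.72% of those called lower (32). It was in 6.56% of promoters of genes higher by at least 5 (16) and in 11.8% of genes lower by at least 5 (6 of 51). None of these 3 motifs contains another, and a match is a description of letters, not a bound site. Another 5 motifs were searched in the same way, and for genes higher by at least 5 against all promoters the shares were 2.46% against 0.804% for the NKX2-1 site (CACTTGAG), 14.3% against 10.04% for the C/EBP site (TTGCNNAA) and 3.69% against 1.94% for the grainyhead site (AACCNGTT). The SREBP site (TCACNCCAC) was in 2.05% against 1.18% and the AP-1 site (TGANTCA) in 11.1% against 7.20%. Among genes lower by at least 5 the C/EBP site was in 15.7% (8 of 51), the AP-1 site in 5.88% (3) and each of the other 3 in 1.96% (1). Over all genes called higher the shares were nearer to those of all promoters. They were 1.18% for the NKX2-1 site, 10.5% for C/EBP, 2.98% for grainyhead, 1.18% for SREBP and 6.51% for AP-1. Over all genes called lower they were 0.595%, 9.18%, 1.62%, 0.935% and 4.76%. Among promoters of genes above background the TCF/Lef core was in 2.47% (226 of 9157), below the 2.87% among genes higher by at least 5, where all promoters gave 3.23%. In these 9157 promoters the RFX core was in 0.721%, the forkhead core in 2.66% and the NKX2-1 site in 0.743%. The C/EBP site was in 8.66%, the grainyhead site in 2.00%, the SREBP site in 1.06% and the AP-1 site in 4.90%. For AP-1 the 6.51% among all genes called higher lay above this 4.90% and below the 7.20% of all promoters. The RFX core ends in ATG and can cover a start codon when it lies after the start, and the part of this in the shares was not tested.

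**Figure D3:**
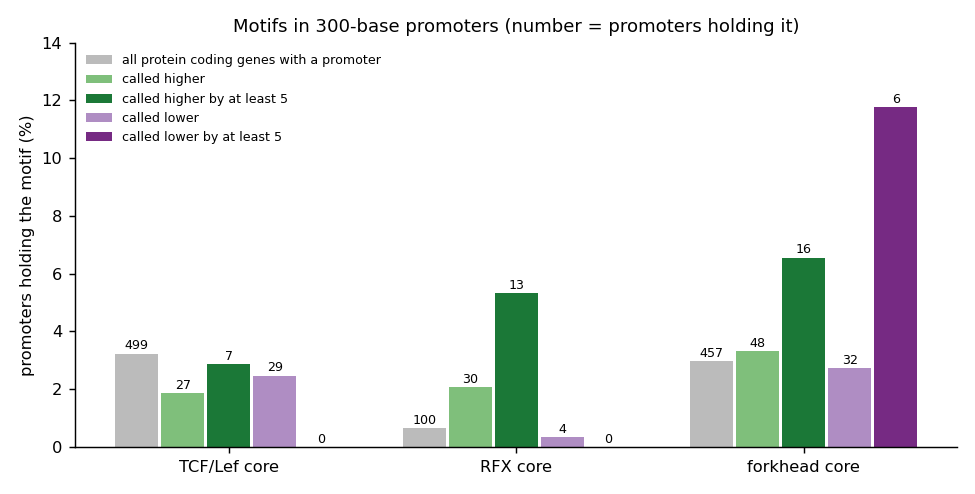
Share of 300-base promoters that hold each motif on either strand, by gene group, with the number of promoters above each bar. The RFX core is at 5.33% among genes higher by at least 5 against 0.648% of all promoters, and the TCF/Lef core is at 2.87% against 3.23%.

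The following 60-base windows, on the strand of the gene and 5′ to 3′, show the RFX core in capitals in promoters of genes with large rises. Sntn was taken by the rule for named genes, and the others, the next largest rises outside the earlier gene lists, were added after their values were seen. The windows lie at chr14:13670784-13670843 (+) for Sntn, chr3:30647835-30647894 (−) for Lrrc34, chr7:83794848-83794907 (−) for Cfap161, chr9:110476941-110477000 (+) for Kif9 and chr10:103236308-103236367 (−) for Lrriq1 (GRCm38.p6).
Sntn: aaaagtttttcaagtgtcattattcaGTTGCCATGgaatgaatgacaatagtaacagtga
Lrrc34: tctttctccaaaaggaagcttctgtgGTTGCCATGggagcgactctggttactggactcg
Cfap161: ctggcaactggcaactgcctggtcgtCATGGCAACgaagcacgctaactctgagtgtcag
Kif9: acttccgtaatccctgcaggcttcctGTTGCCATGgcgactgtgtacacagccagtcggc
Lrriq1: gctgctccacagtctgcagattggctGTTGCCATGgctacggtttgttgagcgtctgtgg
The match begins 66 bases before the start in Sntn, 50 in Lrrc34, 42 in Cfap161 and 19 in Lrriq1, and at base 10 of the transcript in Kif9. Lrrc34 ran from 12.11 to 13.48 in Wnt-high arrays and from 3.45 to 5.42 in Wnt-negative arrays, a difference of at least 8.48 (SE 0.17). Cfap161, a cilium protein, rose by 8.10 (SE 0.16) and Lrriq1, a leucine-rich repeat protein, by 7.36 (SE 0.15). Cfap161 carries the RFX core on the opposite strand.

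The TCF/Lef core is shown likewise in capitals for the 2 genes that rose most and the 2 that fell most among promoters that hold it, leaving out genes of the earlier lists. The windows lie at chr12:76417402-76417461 (+) for Ppp1r36, chr10:103236374-103236433 (−) for Lrriq1, chr1:83038498-83038557 (−) for Slc19a3 and chr2:154223649-154223708 (+) for Bpifb5 (GRCm38.p6).
Ppp1r36: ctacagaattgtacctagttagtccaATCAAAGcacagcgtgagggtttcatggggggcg
Lrriq1: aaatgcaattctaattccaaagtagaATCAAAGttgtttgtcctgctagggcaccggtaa
Slc19a3: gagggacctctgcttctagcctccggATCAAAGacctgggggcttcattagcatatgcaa
Bpifb5: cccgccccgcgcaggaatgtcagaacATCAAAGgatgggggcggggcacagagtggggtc
Ppp1r36, a regulatory subunit of protein phosphatase, rose by 9.25 (SE 0.26). Slc19a3, a thiamine transporter, fell by 4.61 (SE 0.41), and Bpifb5, of a family of secreted airway proteins, fell by 4.03 (SE 0.39). The Lrriq1 promoter holds both motifs. Of the leading genes, 13 of the highest and 12 of the lowest had a RefSeq promoter, and none of these held the TCF/Lef core.

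Families named for a protein domain were higher in Wnt-high cells far more often than lower. Of 132 genes named for a coiled coil (Ccdc), 45 rose and 6 fell. Of 63 WD repeat genes 19 rose and 3 fell, of 39 tetratricopeptide genes 15 rose and 4 fell, and of 62 leucine-rich repeat genes 17 rose and 2 fell. Of 17 EF-hand genes, whose products bind calcium, 10 rose and 1 fell, with a median log2 difference of 2.56 against −0.03 over coding genes. Efcab1 rose by 8.34 (SE 0.23), Efcab10 by at least 7.65 and Efhb by 6.24. Of 91 genes with sperm or testis names 24 rose and 3 fell, among those that rose Tekt1, a filament protein of axonemal microtubules, at 9.22, and Odf3b, named for the outer dense fibres of sperm, at 8.83 (SE 0.15). Ccdc180 rose by 8.25, Wdr63, an axonemal dynein chain, by 8.93, Wdr66 by 7.21, Wdr93 by 7.18, Ttc21a by 7.69, Ttc12, which acts in dynein arm assembly, by 7.46, and Lrrc23 and Lrrc6, both known from cilia, by 9.09 and 8.94. The lists of this paragraph share members with the leading genes above.

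Some members of these families fell. Lrrc8c, a subunit of the volume-regulated anion channel, fell by 5.70 (SE 0.60), and its paralog Lrrc8d by 1.66. Ccdc141 fell by 4.86 (SE 0.36), and Wdr45, Wdr81 and Wdr91, which act in autophagy or endosomes, fell by 2.67, 2.56 and 2.13. Ttc7b and Ttc7, scaffolds of a lipid kinase at the plasma membrane, fell by 2.79 and 2.03.

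Motor and cytoskeletal genes divided by type. Of 38 kinesins, motors that move along microtubules, 10 rose and Kif13a fell by 2.42. Kif9 ran from 12.19 to 13.09 in Wnt-high arrays (median 12.40) and from 4.31 to 5.93 in Wnt-negative arrays (median 4.99), a difference of 7.46 (SE 0.17). Kif21a and Kif6 rose by 6.17 and 5.56. Of 47 myosins, motors on actin, 2 rose and 6 fell, with Myo1h up by 3.61 and Myh7, Myo1c and Myo1e at −4.58, −2.32 and −2.25. Among 12 septins, filament proteins that also ring the base of cilia, Septin11 and Septin9 rose by 4.53 and 2.69 and Septin7 fell by 1.37. The ezrin scaffold Slc9a3r1 rose by 3.25 and ezrin itself, Ezr, by 1.09, while the related moesin gene, Msn, fell by 2.17 and the actin bundler Lcp1 by 3.33.

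**Figure D4:**
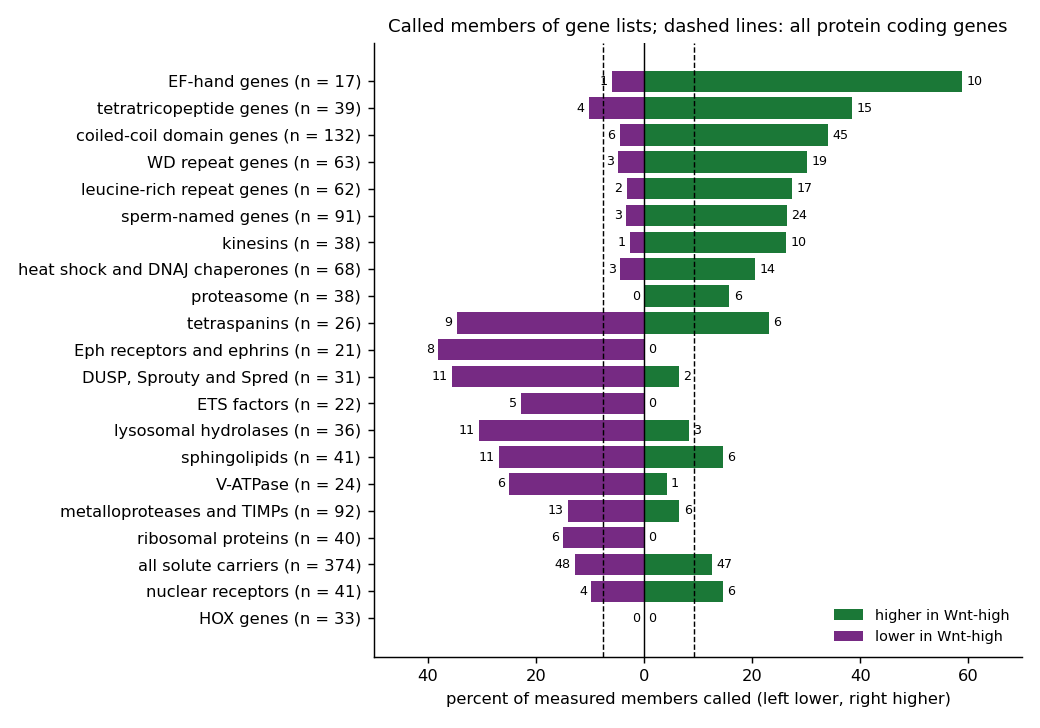
Percent of the measured members of 21 gene lists that were called higher (right) or lower (left) in Wnt-high cells, with the number called at the end of each bar; the dashed lines are the shares over all protein coding genes, 9.29% and 7.66%. EF-hand genes reach 10 of 17 on the right, and Eph receptors and ephrins 8 of 21 on the left with 0 on the right.

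Families of transcription factors were set beside the shares of all coding genes, 9.29% higher and 7.66% lower. The SOX list, with 10.5% higher and 5.26% lower, was near them, and Sox2 rose most within it. Sox2, a factor of the conducting airways, ran from 8.78 to 11.41 in Wnt-high arrays (median 10.07) and from 3.75 to 5.05 in Wnt-negative arrays (median 4.40), a difference of 5.71 (SE 0.23, adjusted p = 6.31e-09). Sox6 rose by 1.69 and Sox4 fell by 1.06 (not called without experiment 7 or 8), and the other 16 of 19 SOX genes were not called. Of 74 other homeobox genes 3 rose (4.05%) and 2 fell (2.70%). Barx2 rose by 4.21 (SE 0.21) and Six4 by 3.50 (SE 0.12), and Irx1 and Irx2 of the Iroquois family fell by at least 3.07 and by 1.78. Of 33 HOX genes none was called, and none had a group mean above background in both runs. Of 39 forkhead genes Foxq1 rose by 1.09 (not called without experiment 4), and Foxo3, Foxp2 and Foxp1 fell by 2.30, 1.44 and 1.22. The forkhead shares were 2.56% higher and 7.69% lower.

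Of 22 genes of the ETS family 5 fell (22.7%) and 0 rose, and the list median was −0.12. Etv5, a factor downstream of FGF signalling in alveolar type II cells, ran from 4.69 to 10.19 in Wnt-high arrays (median 6.49) and from 12.79 to 13.27 in Wnt-negative arrays (median 13.00), a difference of −6.07 (SE 0.67, adjusted p = 2.30e-05). Elk3, Ehf, Elf5 and Ets2 fell by 2.67, 2.39, 2.35 and 1.06. Of 31 genes of the Dusp, Sprouty and Spred families, which act as feedback brakes on MAP kinase signalling, 11 fell and 2 rose. Spry2 ran from 8.08 to 11.44 (median 9.55) against 11.17 to 13.63 (median 12.79), a difference of −2.9995 (SE 0.25), and its groups overlapped over all arrays but not within a run. Dusp16 and Dusp3 stood at −2.67 and −2.32, while Dusp18 and Dusp14 rose by 2.62 and 2.38.

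Of 41 nuclear receptors 6 rose (14.6%) and 4 fell (9.76%). Rora, a receptor of the clock and of lipid metabolism, ran from 5.56 to 9.25 in Wnt-high arrays (median 6.88) and from 9.83 to 12.30 in Wnt-negative arrays (median 11.11), a difference of −4.01 (SE 0.27). The glucocorticoid receptor gene Nr3c1 fell by 1.59, Rarb, a retinoic acid receptor, rose by 2.41, and Nr1i2, a sensor of foreign compounds, by at least 2.95. Of 16 clock genes Per2, Bhlhe41 and Cry2 rose by 1.58, at least 1.38 and 1.13 (Cry2 not called without experiment 7), and Bhlhe40 fell by 2.42. Epas1, which encodes the hypoxia-inducible factor HIF-2 alpha, fell by 3.52 (SE 0.58), and in Wnt-low arrays it was at 16.84, above both other groups.

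Among the listed cell surface guidance genes more fell than rose. Of 21 Eph receptors and ephrins, which signal between touching cells, 8 fell (38.1%) and 0 rose, with a list median of −0.53. Epha7 ran from 4.01 to 7.72 in Wnt-high arrays (median 5.29) and from 8.18 to 11.22 in Wnt-negative arrays (median 10.08), a difference of −4.44 (SE 0.34, adjusted p = 1.20e-06). Epha4 and Efnb1 fell by 2.37 and 2.09, and Epha2, Efna1, Ephb4, Ephb6 and Ephb3 with differences of −1.0035 to −2.03. Ephb3 and Ephb6 were not called with the experiment as a block, nor without experiment 2 or 5. Plxna4, a semaphorin receptor subunit, fell by 5.19 (SE 0.45) and Robo1, a Slit receptor, stood at −1.503, while Plxnb2 rose by 1.34. Of the 26 genes of their list, of Slit, Robo, netrin and plexin, 4 fell (15.4%) and 1 rose (3.85%), with a median of −0.04.

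Tetraspanins, which organise membrane patches, changed in both directions, 6 higher and 9 lower of 26. Tspan1 rose by 5.75 (SE 0.33) and Tspan3 by 4.55 (SE 0.19), while Tspan11 fell by 5.91 (SE 0.64) and Cd81 by 4.36 (SE 0.47). Of 77 cadherin superfamily genes 7 rose (9.09%) and 2 fell (2.60%), against 9.29% and 7.66% of all coding genes. The largest rise of the list, 10.90, was that of a gene of the earlier lists, and Cdhr4 came next. Fat4 rose by at least 2.54 and Cdh16 fell by 3.87. Among adhesion receptors coupled to G proteins, Adgrf5, which regulates surfactant in alveolar type II cells, fell by 4.37 (SE 0.46), and Adgrg6 rose by 3.27. Of 19 connexins and pannexins, the channels between cells, only Gja1 was called, with a fall of at least 2.21.

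Solute carriers rose and fell in near equal number, 47 and 48 of 374. The amino acid transporter Slc1a4 ran from 11.06 to 12.17 in Wnt-high arrays (median 11.33) and from 4.17 to 5.99 in Wnt-negative arrays (median 4.87), a difference of 6.45 (SE 0.19). Slc43a3, a purine base transporter, rose by 6.30 (SE 0.24), Slc7a7 by 4.36 and the glucose transporter gene Slc2a1 by 3.30 (SE 0.17). Slc26a9, a chloride transporter, fell by 5.64 (SE 0.57), Slco2a1, which takes up prostaglandins, by 5.39 (SE 0.54), and the amino acid transporters Slc7a8 and Slc38a4 by 4.02 and 3.85. Slc39a8, which imports zinc and manganese, ran from 4.79 to 10.84 (median 6.61) against 11.68 to 13.22 (median 12.55), a difference of −5.39 (SE 0.65). The metallothionein genes Mt1 and Mt2, whose products bind zinc and copper, rose by 4.29 (SE 0.26) and 4.08 (SE 0.21).

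Of 31 genes of iron and heme metabolism 6 rose and 5 fell. Cp, the copper-dependent ferroxidase ceruloplasmin, ran from 11.56 to 13.16 in Wnt-high arrays (median 11.60) and from 4.31 to 6.33 in Wnt-negative arrays (median 5.72), a difference of 6.40 (SE 0.30). In Wnt-low arrays Cp was higher still, at 14.43. Alas1, the first enzyme of heme synthesis, rose by 3.57, and the transferrin receptor gene Tfrc fell by 2.75.

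Potassium channel genes gave 7 higher (7.87%) and 5 lower (5.62%) of 89, near the 9.29% and 7.66% of all coding genes. Calcium channel subunits gave 3 higher and 1 lower of 24. Kcnmb4 and Kcnmb2, auxiliary subunits of the calcium-activated BK channel, rose by 4.18 and 2.68, and Kcnj15 and Kcnk1 fell by 4.75 and 2.39. Of 32 TRP and Piezo channels 3 fell and 0 rose, with Trpm6 at −4.67, Trpv6 at −3.09 and the mechanically gated Piezo1 at −2.55. The calcium channel gene Cacna1c fell by 3.38, while its accessory subunit gene Cacna2d1 rose by at least 2.46. Of 24 subunits of the proton pump that acidifies lysosomes and lamellar bodies, 6 fell and 1 rose, with Atp6v0a1 down by 3.97 (SE 0.31) and Atp6v1c2 by 3.62 (SE 0.35).

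In several pathways, some called genes of one family, or of the same or successive steps, changed in opposite directions. They were picked by their values, so the contrast is a description. Among 22 purinergic genes 4 rose and 3 fell. Nt5e, the surface enzyme that makes adenosine from AMP, ran from 9.75 to 11.45 in Wnt-high arrays (median 10.57) and from 4.98 to 6.36 in Wnt-negative arrays (median 5.29), a difference of 5.07 (SE 0.16). Entpd1, the enzyme before it that breaks ATP down, ran from 5.12 to 10.31 (median 6.30) against 12.51 to 13.64 (median 13.07), a difference of −6.22 (SE 0.62). The ATP receptor gene P2rx6 rose by 5.37 (SE 0.16) and P2rx5 fell by 4.77 (SE 0.38), and P2ry2, a nucleotide receptor of airway epithelium, fell by 3.09 (SE 0.23).

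Sphingolipid genes gave 6 higher and 11 lower of 41. Sptlc3, a subunit of the enzyme that starts sphingolipid synthesis, ran from 7.15 to 9.15 in Wnt-high arrays (median 8.25) and from 3.35 to 4.33 in Wnt-negative arrays (median 3.98), a difference of at least 4.31 (SE 0.18). The alternative subunit gene Sptlc2 fell by 3.44 (SE 0.28). Of the sphingomyelin synthases Sgms2 rose by 5.03 (SE 0.18) and Sgms1 fell by 2.58 (SE 0.15). Sgpp2, a phosphatase of sphingosine phosphate, was at 3.99 to 12.32 against 14.11 to 14.95, a difference of −6.91 (SE 0.97).

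Peroxisomal genes showed the same kind of contrast. Acox2, an oxidase of branched chains and bile acid precursors, ran from 10.53 to 11.28 in Wnt-high arrays (median 10.83) and from 4.92 to 6.00 in Wnt-negative arrays (median 5.39), a difference of 5.44 (SE 0.08, adjusted p = 1.73e-11). Its relative Acoxl was at 5.07 to 12.24 against 15.24 to 16.20, a difference of −7.68 (SE 0.98). Over 34 peroxisomal genes 3 rose and 5 fell. Fatty acid oxidation genes gave 3 and 3 of 24, with the mitochondrial carnitine transferase Cpt1a up by 1.34 and the acyl-CoA ligase genes Acsl4 and Acsl5 down by 5.13 and 3.07.

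**Figure D5:**
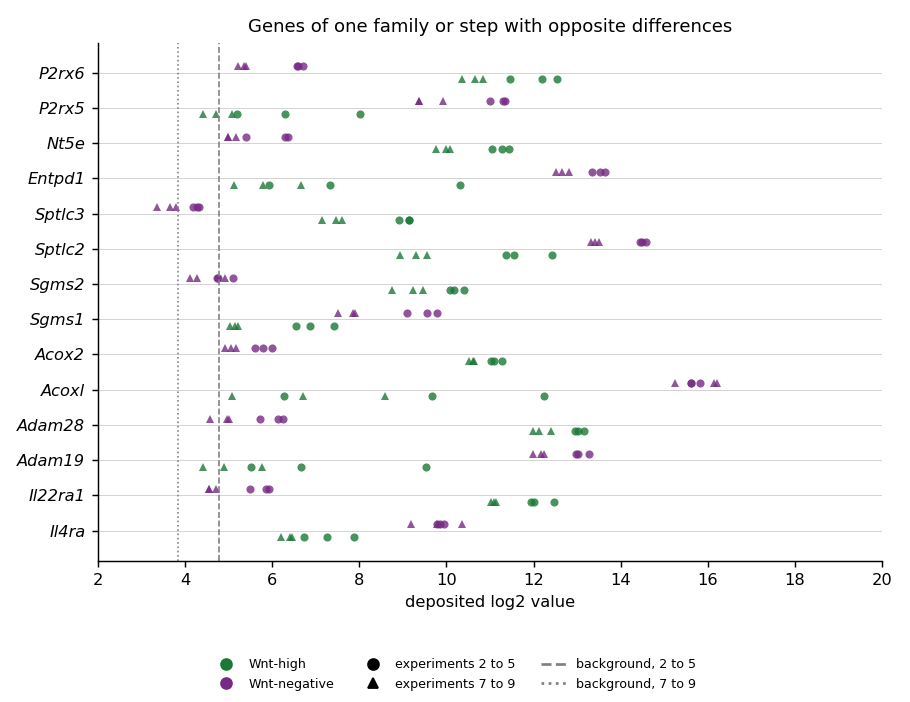
Deposited log2 values of 14 genes on each array, in pairs from the same gene list. Lines mark the background of the 2 runs at 4.79 and 3.85. The pairs were chosen for their opposite differences, so the contrast is a description. In each pair the upper gene is higher in Wnt-high arrays and the lower gene is lower, as for Acox2 (difference 5.44) and Acoxl (−7.68).

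Of 36 lysosomal genes 11 fell and 3 rose, with a list median of −0.75. Ctsc, a protease that activates other proteases, ran from 5.16 to 12.44 in Wnt-high arrays (median 8.13) and from 14.86 to 15.33 in Wnt-negative arrays (median 14.90), a difference of −6.48 (SE 0.92). The cathepsin gene Ctsz fell by 4.05, and the cholesterol exporter gene Npc1 fell by 3.37. Psap, the precursor of the saposins, went the other way, from 11.56 to 12.79 in Wnt-negative arrays (median 12.00) up to 15.27 to 15.75 in Wnt-high arrays (median 15.46), a difference of 3.39 (SE 0.21). Ids, an enzyme of glycosaminoglycan breakdown, rose by 2.62.

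Genes of carbon metabolism changed in both directions. Of 22 glycolysis genes 5 fell and 2 rose, with Hk2 at −2.99, Pfkfb4 at −3.05 and Hkdc1 lower by at least 2.35, and with Pklr and Pgam1 up by 2.08 and 1.54. Among genes of one-carbon and polyamine metabolism Cth, of cysteine synthesis, fell by 3.87 and Mthfd1, of folate metabolism, by 3.02, while Odc1 and Smox, of polyamine metabolism, rose by 1.97 and 1.95. Aldh1a1, which makes retinoic acid, ran from 16.42 to 17.39 in Wnt-high arrays (median 17.003) and from 8.86 to 11.20 in Wnt-negative arrays (median 10.88), a difference of 6.58 (SE 0.41). Lrat, which stores retinol as ester, rose by at least 1.99, and Rbp4, the retinol carrier, fell by 1.88.

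Cytokine receptor genes were called in 6 of 38, 4 higher and 2 lower. Il22ra1, the receptor by which epithelium senses interleukin 22, ran from 11.02 to 12.47 in Wnt-high arrays (median 11.54) and from 4.55 to 5.93 in Wnt-negative arrays (median 5.10), a difference of 6.43 (SE 0.10, adjusted p = 1.90e-11). Il6ra rose by 3.77 (SE 0.11) and Il1rl2, the receptor of interleukin 36, by 2.92 (SE 0.17). Il4ra fell by 2.99 (SE 0.25) and Il17ra by 1.48 (SE 0.10). In the TNF superfamily 2 of 37 rose and 5 fell, with the death receptor gene Fas up by 2.97 and the ligand gene Tnfsf9 and the receptor gene Tnfrsf12a down by at least 4.29 and at least 4.00.

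Genes of prostaglandin and second messenger signalling changed singly. Pla2g4a, the phospholipase that frees arachidonic acid, ran from 10.93 to 12.19 in Wnt-high arrays (median 11.47) and from 6.02 to 7.82 in Wnt-negative arrays (median 7.20), a difference of 4.53 (SE 0.16). Ptgs2, the inducible cyclooxygenase, was at 5.96 to 11.32 against 9.67 to 12.48, a difference of −2.90 (SE 0.41), and its groups overlapped over all arrays. Among cAMP genes, Prkar2b, a regulatory subunit of protein kinase A, rose by at least 4.78, and the cyclase gene Adcy7 fell by 4.97 (SE 0.39). The annexin gene Anxa8 rose by 5.03 (SE 0.13), and S100g, a calcium-binding protein, fell by at least 5.47.

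Proteases at the cell surface differed by family. Of 92 metalloproteases and their inhibitors 6 rose and 13 fell. Adam28 ran from 11.98 to 13.16 in Wnt-high arrays (median 12.67) and from 4.58 to 6.24 in Wnt-negative arrays (median 5.36), a difference of 7.16 (SE 0.12). Adam8 rose by 6.90 (SE 0.21), and Adam19, a further membrane shedding protease, fell by 6.48 (SE 0.58). Anpep, an aminopeptidase, was at 7.19 to 13.80 against 16.07 to 16.33, a difference of −6.13 (SE 0.84). Of 86 serine proteases 3 rose and 4 fell, with Tmprss2, a membrane protease that also primes respiratory viruses, up by 3.35 (SE 0.13) and Klk11 by at least 3.85.

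Of 68 heat shock and DNAJ genes 14 rose (20.6%) and 3 fell (4.41%), against 9.29% and 7.66% of all coding genes. Dnajb13, a radial spoke protein of cilia, rose by 6.81 (SE 0.14). Hsph1, a partner of HSP70, ran from 15.38 to 16.29 in Wnt-high arrays (median 16.003) and from 8.16 to 11.59 in Wnt-negative arrays (median 10.29), a difference of 5.85 (SE 0.46), and the related Hspa4l rose by 5.00. Hspb8 fell by 3.57, and Dnajb9, of the endoplasmic reticulum, by 2.70. Of 38 proteasome genes 6 rose (15.8%) and 0 fell, led by Psmd10 at 2.36 (SE 0.16), and the list median was 0.33. Of 40 ribosomal protein genes 6 fell and 0 rose, with a list median of −0.72, led by Rpl12 at −1.59 (SE 0.19) and Rpl31 at −1.57. After quantile normalization over the 12 arrays the median over all genes was −0.02 in place of −0.05.

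Of 37 genes of the BCL2 family and caspases 4 rose and 6 fell. Bok, a killer of the BCL2 family, ran from 8.99 to 11.24 in Wnt-high arrays (median 10.29) and from 4.70 to 6.02 in Wnt-negative arrays (median 5.30), a difference of 4.84 (SE 0.18). The inflammatory caspase genes Casp1 and Casp4 rose by at least 3.21 and at least 2.67. Bcl2a1a, Bcl2a1d and Bcl2a1c, survival genes, fell by 5.92, 4.16 and at least 2.58, but these are near-identical copies whose probes may read each other, so they are uncertain as separate genes. Among p53 targets Polk, a repair polymerase, rose by 3.46 and Plk2 fell by 4.29.

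Among the large non-coding classes, only small nuclear RNA genes were called in a greater share than coding genes (17.0%). Of 3169 lncRNA genes 97 rose and 46 fell, and of 4274 pseudogenes 88 rose and 326 fell. Of 914 small nuclear RNA genes, whose products splice messenger RNA, 282 fell, or 30.9%, and 1 rose. The median difference of the 282 was −1.75 in experiments 2 to 5 and −2.48 in experiments 7 to 9. Rnu6, a gene of the U6 RNA, ran from 7.41 to 10.70 in Wnt-high arrays (median 9.63) and from 10.85 to 13.67 in Wnt-negative arrays (median 12.40), a difference of −3.06 (SE 0.53, adjusted p = 6.97e-04). Many of these genes are copies, and 48 of them carry the same value as Rnu6 on every array, so the 282 genes hold 221 different sets of values and are not independent. The U2 gene Rnu2-10 fell by 1.78 (SE 0.16), while the U1 gene Rnu1a1 was at −0.27. The long nuclear RNAs Neat1 and Malat1 were also lower, at −2.81 (SE 0.43) and −1.67 (SE 0.30). Rn7sk, near the top of the scale, was at 19.31 and 19.24.

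Of 600 microRNA genes 9 rose and 17 fell. The array reads the hairpin or its host transcript and not the mature microRNA. Mir23a, Mir27a and Mir24-2, which lie side by side on chromosome 8, all fell, and their mature arms are shown with the seed, bases 2 to 8, in capitals because the seed sets which messages a microRNA pairs with (RefSeq, GRCm38.p6). The arms lie at chr8:84208563-84208583, chr8:84208727-84208747 and chr8:84208875-84208896 on the plus strand. Mir34b, of a family known from multiciliated cells, rose, and its arm lies at chr9:51103610-51103632 on the minus strand.
miR-23a-3p: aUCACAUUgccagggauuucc
miR-27a-3p: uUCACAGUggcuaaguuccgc
miR-24-3p: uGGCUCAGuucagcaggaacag
miR-34b-5p: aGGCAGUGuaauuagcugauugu
Mir27a ran from 5.92 to 10.26 in Wnt-high arrays (median 8.15) and from 8.32 to 12.90 in Wnt-negative arrays (median 11.71), a difference of −3.19 (SE 0.73, adjusted p = 0.00446). Mir23a was at −2.46 (SE 0.73, adjusted p = 0.0186) and Mir24-2 at −2.21 (SE 0.47). The groups of all 3 overlapped over the 12 arrays, and without experiment 8 or 9 Mir23a was not called. Mir34b ran from 6.30 to 8.44 (median 7.48) against 5.30 to 6.22 (median 5.96), a difference of 1.61 (SE 0.21), without overlap. Mir34c, its neighbour, was at 4.09 and 4.07, in the range of the background. The seeds of miR-23a-3p, miR-27a-3p and miR-24-3p differ from each other.

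Of 1372 olfactory and vomeronasal receptor genes 3 were called, all lower. They were Olfr171, Olfr170 and Olfr169, at −5.82 (SE 0.70), at least 3.51 lower and at least 3.97 lower. In the RefSeq gene order they are the 3 genes next to Lamp3, a protein of lamellar bodies, whose own difference was −6.81. The next receptor gene in that row, Olfr168, was at −0.08. Olfr171 ran from 4.2001 to 7.19 in Wnt-high arrays (median 5.19) and from 8.27 to 12.55 in Wnt-negative arrays (median 11.82). Whether these probe sets read receptor transcripts or transcripts of the neighbour was not tested.

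Markers of cells that sorting should remove were checked by lists. The 14 immune markers and the 10 markers of fibroblasts and smooth muscle had no called member. Array means over the immune markers were 4.10 to 4.17 in Wnt-high and 4.17 to 4.24 in Wnt-negative arrays of experiments 2 to 5, and 3.34 to 3.35 and 3.32 to 3.47 in experiments 7 to 9. Of 10 endothelial markers Kdr, a VEGF receptor, rose by 1.92 (SE 0.45) and Esam, an adhesion protein of tight junctions, fell by 4.26 (SE 0.32), while Wnt-low arrays had Kdr at 10.58. Esam ran from 4.99 to 7.61 in Wnt-high arrays (median 5.31) and from 9.25 to 10.38 in Wnt-negative arrays (median 9.99), above background there. Kdr ran from 5.29 to 8.78 (median 5.81) against 3.78 to 5.16 (median 4.62). The 10 epithelial markers had array means of 11.74 to 11.94 and 11.33 to 11.40 in Wnt-high and Wnt-negative arrays of experiments 2 to 5. Of them Cldn4 rose by 2.72 (SE 0.18) and Krt8 by 1.49 (SE 0.14).

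The size of the difference depended on the run for few genes. The interaction of group and run passed at an adjusted p under 0.05 for 58 of 30142 genes, or 0.192%. With experiment 9 left out 0 genes passed in limma (2259 at an unadjusted p under 0.05), and after quantile normalization 1 passed. The 5 with the smallest p were Gask1a, Ephx1, Nudc, Tuba1a and Gsn, and all 5 were higher in Wnt-high cells in both runs. Gsn, the actin-severing protein gelsolin, rose by 4.40 in experiments 2 to 5 and by 6.01 in experiments 7 to 9 (adjusted p of the difference 0.00422). Tuba1a, an alpha tubulin, rose by 2.51 and 3.97, Nudc, a partner of dynein, by 2.48 and 3.60, and Ephx1, an epoxide hydrolase, by 2.21 and 3.47. Gask1a went the other way, with 1.66 and 0.60, and in Wnt-low arrays it was at 8.79 against 6.54 in Wnt-high arrays.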

How the data were processed

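RNA of 18 pools of sorted lung epithelial cells was measured on Affymetrix mouse transcriptome arrays, and 12 arrays entered the comparison. The deposited values are log2 intensities that the authors normalized with RMA, per the submitters' processing notes; its software, version and genome build: not given in the sources used here. Arrays give no read depth, and their number limits the precision. Of 65956 probe sets that are no controls, 30604 name 1 gene symbol, 2146 several and 33206 none. Each of 30142 genes was read from its probe set with the highest mean, and 827 symbols were updated through RefSeq.

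The values were fitted in limma 3.58.1 (R 4.3.3) with group and run (experiments 2 to 5, and 7 to 9) as fixed terms, and p-values were Benjamini-Hochberg adjusted over all 30142 genes. A call needed an adjusted p under 0.05 and a log2 difference of at least 1. The interaction of group and run was fitted separately. No filter on low values was used. The scripts were tested on simulated data.

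Genes named are the 15 highest and 15 lowest called coding genes outside the earlier lists, up to 3 called members at each end of each list, and the 5 smallest p of the run interaction; any other gene is named because of its values. The called non-coding genes with the largest differences, a further part of the rule, are given in the closing section. The members and lists were chosen with earlier results of these data known.

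Groups share experiment numbers. Deviations of same-numbered arrays correlated at 0.57 to 0.74 with group means removed and at −0.20 to 0.08 with the run means removed as well. Removing run means over so few arrays itself lowers this correlation, so these values cannot decide whether the numbers pair arrays within a run. Alternatives were the experiment as a block, other normalizations and thresholds, each run alone and each experiment left out.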

Additional observations from a re-analysis of the deposited data

Results flagged for a closer look

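Of 498 groups of 6 arrays tested over the named genes and the medians of called genes, with the run means removed, 40 held an array that stood apart by Dixon's test; chance flags about 1 in 20 groups. Highest and lowest refer here to values with the run means removed, so another array of the group can have a more extreme deposited value. The values given are the deposited log2 values of the array that stood apart. The Wnt-negative array of experiment 3 was the highest of its group for Ccdc113 at 6.75, Cfap161 at 5.69, Cfap206 at 8.18, Dnah6 at 7.25, Lrrc6 at 6.45, Pifo at 8.11, Ppp1r36 at 7.03, Sntn at 7.28, Vwa3a at 7.05 and Wdr93 at 6.08. Most of these are cilium genes. The Wnt-high array of experiment 4 was the highest of its group for Ctsz at 10.80, Efnb1 at 9.99, Foxq1 at 7.12, Rpl31 at 10.75 and Tnfsf9 at 6.11. The same array was the lowest of its group for Cfap161 at 12.69, Hoatz at 14.20, Ttc12 at 12.40, Wdr63 at 14.08 and Wdr93 at 12.23. Over all genes called lower, its median of −1.30 from the Wnt-negative mean of its run also stood apart. Among Wnt-high arrays, the highest value stood apart for Efcab10 (experiment 2) at 13.28 and Six4 (experiment 5) at 10.13. Among Wnt-high arrays, the lowest value stood apart for Olfr168 (experiment 9) at 2.76 and Sox4 (experiment 7) at 10.82. Among Wnt-negative arrays, the highest value stood apart for Irx2 (experiment 8) at 7.67, Mir34b (experiment 7) at 5.87, P2ry2 (experiment 7) at 10.12 and Smox (experiment 9) at 6.47. Among Wnt-negative arrays, the lowest value stood apart for Anxa8 (experiment 8) at 3.99, Cdh16 (experiment 9) at 8.14, Cry2 (experiment 7) at 7.46, Epha2 (experiment 5) at 11.39, Ephb6 (experiment 9) at 5.12, Foxq1 (experiment 4) at 4.87, Kcnmb2 (experiment 4) at 5.27, Mt2 (experiment 3) at 6.64, Nt5e (experiment 4) at 5.405, Olfr169 (experiment 7) at 5.30 and Olfr170 (experiment 7) at 4.54.

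The difference between Wnt-high and Wnt-negative cells differed between the runs by the interaction in limma for 8 named genes. As experiments 7 to 9 minus experiments 2 to 5, in log2, it was −1.22 for Cacna2d1, 3.21 for Csrp2, 1.26 for Ephx1, −1.05 for Gask1a, 1.61 for Gsn, 1.05 for Kif21a, 1.13 for Nudc and 1.46 for Tuba1a. All 8 were higher in Wnt-high cells in both runs.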

How the results depend on the processing

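Of the 246 named genes 242 were called, and over 22 settings none of these 242 changed direction in any. A change of threshold or variance keeps the fitted differences, and so does leaving out dim genes or the block. In those settings no direction could change. Changes of sign were not counted for named genes that were not called. Of the 242, 236 were called in every setting that left out 1 experiment and 199 in every setting. With the experiment as a replicate block the count was 4072 (1951 higher, 2121 lower; 4011 shared) as a fixed term and 4192 as a random term, and named genes lost were Ephb3, Ephb6 and Mir23a under the former. Without any block 2709 genes were called, 1256 of them lower. With no size threshold 12089 were called (4802 higher, 7287 lower), with a test against a difference of 1 (treat) 2736 (1252 lower), and at a log2 difference of at least 2 there were 2007 (1122 higher, 885 lower). Centring, quantile normalization, leaving out dim genes, averaging probe sets and using all 18 arrays gave 4180 to 4215. Leaving out each experiment gave 4084 to 4309 genes, 1960 to 2039 higher and 2119 to 2293 lower. Experiments 2 to 5 alone gave 4229 genes (3850 shared), and experiments 7 to 9 alone 3962 (3746 shared). Named genes lost in the former were Cpt1a, Cry2, Epas1, Ezr, Gm6166, Kcnk1, Kdr, Mir23a, Mir24-2, Rbp4 and Sox4. Those lost in the latter were Bhlhe41, Ephb3, Ephb6, Foxq1, Gask1a, Mir23a, Mir24-2, Mir27a and Olfr170. Without the Wnt-high array of experiment 4, a setting chosen after seeing the data, 4375 were called. Etv5 then stood at −6.67 and Acoxl at −8.47.

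The count of 58 genes whose difference depended on the run was the least stable result. It was 1 after quantile normalization (1641 at an unadjusted p under 0.05), 27 with a trended robust variance, 66 with arrays centred on the median, 77 with dim genes left out, 79 with the runs scaled to one spread, and 0 to 27 with each experiment left out. Without experiment 9 it was 0 (limma, 2259 at an unadjusted p under 0.05). The cause was not tested. Genes near background have a lower limit only, and the number of arrays limits the precision.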

Other observations

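The 5 non-coding genes with the largest rises in Wnt-high cells were a pseudogene, 3 lncRNA genes and a transcribed pseudogene. The pseudogene Gm7094 ran from 14.15 to 14.89 in Wnt-high arrays (median 14.69) and from 5.79 to 7.33 in Wnt-negative arrays (median 6.33), a log2 difference of 8.24 (SE 0.24). The lncRNA genes C230072F16Rik, AW112010 and AU040972 rose by 7.49, at least 6.37 and at least 6.12, and Gpx2-ps1, a copy of a glutathione peroxidase gene, by 6.05. The groups did not overlap for any of the 5.

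The 5 with the largest falls were all pseudogenes. Gm12245 ran from 5.72 to 13.78 in Wnt-high arrays (median 8.98) and from 15.27 to 16.52 in Wnt-negative arrays (median 16.26), a difference of −6.69 (SE 0.94). Gm6166, Gm14328 and Gm13998 fell by 6.27, 5.96 and 5.85, and Fabp5l2, a copy of a fatty acid binding protein gene, by 5.69 (SE 0.71). A pseudogene's probes can read its parent gene, and which of them was measured was not tested. Among microRNA genes the largest rise was that of Mir8090, at 3.73 (SE 0.31).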
